A study of Mus musculus with 20 samples.

Results

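Integrins are adhesion receptors made of 1 alpha and 1 beta chain, and each pair recognises its own ligands on other cells, on complement fragments or in the extracellular matrix. Leukocytes carry the pairs built on Itgb2 (CD18), among them LFA-1 with Itgal and Mac-1 with Itgam, and use them to arrest on inflamed vessels and to take up opsonised particles. The chain Itgb1 pairs with many alpha chains to form matrix and VCAM-1 receptors, while Itgav with its partners binds RGD motifs and can free latent TGF-beta, which is central to scarring in the liver.

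The values of 10 integrin chains were analysed in monocyte-derived macrophages (MoMac) of fibrotic mouse liver: the alpha chains Itgam, Itgal, Itga2, Itga4, Itga6, Itgae and Itgav and the beta chains Itgb1, Itgb2 and Itgb7. They were chosen by gene symbol, each has 1 row among the 59311 genes of the expression table, and all 10 passed the filter on low values, a mean normalized count of at least 10 in at least 1 of the 4 groups (17248 genes). For Itga2 and Itgae, which were at 0 in every Ly6Chi library, this came only through Ly6Clo libraries.

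RNA was sequenced from 20 libraries, 5 in each of 4 groups. Male C57BL/6J mice, 10 to 12 weeks old, received carbon tetrachloride (CCl4, 0.6 ml/kg, 2 injections per week) for 4 weeks, so that fibrosis was present in all groups and no mouse without CCl4 was included. Before the last injection and daily for 2 days thereafter, mice 16 to 20 were given Ac-6-FP at 0.25 mg/kg, an MR1 ligand that does not activate MAIT cells, and mice 11 to 15 its vehicle (1% DMSO), and livers were taken 2 days after the last CCl4 dose. From each liver, cells negative for Ly6G, CD11c and CD3 and positive for CD11b and F4/80 were sorted into a Ly6Chi and a Ly6Clo subset, which gave the groups Ly6Chi vehicle, Ly6Chi Ac-6-FP, Ly6Clo vehicle and Ly6Clo Ac-6-FP. CD11b is the protein of Itgam and CD11c that of Itgax, so that the sort itself used these chains. Each library is a pool of sorted cells of 1 mouse, in which a larger share of a cell type and more RNA per cell cannot be told apart.

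Reads counted on genes lay between 5693049 and 18682437 per library, and 5343 to 15766 genes were above 0. More genes were above 0 with Ac-6-FP than with vehicle, with medians of 13622 and 9749 in Ly6Chi and of 14084 and 10379 in Ly6Clo, although the groups overlapped. Lowest in both was the Ly6Clo vehicle library of mouse 13, in which 2765 genes had no read out of 6652 whose median over all libraries reached 100. In the other vehicle libraries this number ran from 22 to 870, and in the Ac-6-FP libraries from 21 to 386. Results that rest on the Ly6Clo library of mouse 13 are given with and without it. The macrophage markers Lyz2, Cd68, Csf1r, Adgre1 and Cd14 were above 0 in all 20 libraries. Summed, they did not overlap between the subsets, at 144571 to 200640 in Ly6Chi and 55269 to 112130 in Ly6Clo. Lyz2 (means 124104 in Ly6Chi and 42229 in Ly6Clo) and Cd14 (18143 and 11264) were lower in Ly6Clo, while Cd68, Csf1r and Adgre1 had higher means there. Markers of Ly6Chi monocytes were higher in the Ly6Chi subset for 4 of 4 genes. Of 4 markers of Ly6Clo cells (Nr4a1, Cx3cr1, Ace and Spn), 1, Ace, passed as higher in the Ly6Clo subset, with means of 43.9 in Ly6Chi and 702 in Ly6Clo. Cx3cr1 (2296 and 3629) and Spn (149 and 425) also had higher means in Ly6Clo but did not pass, and Nr4a1, which makes up most of the sum, had means of 9880 and 9321. The sums had medians of 6214 in Ly6Chi and 3100 in Ly6Clo of vehicle mice, and of 16398 and 25229 of Ac-6-FP mice. Kupffer cell markers were low, with summed normalized counts of at most 246 in Ly6Chi and 808 in Ly6Clo libraries. Markers of other cell types were present as well. NK cell markers (Ncr1, Klrb1c, Klrk1, Eomes, Prf1, Gzma and Gzmb) summed to between 28248 and 63288 in the Ly6Clo libraries and to at most 365 in the Ly6Chi libraries. Basophil and mast cell markers summed to between 1099 and 13812 in Ly6Clo and were at 0 in 9 of 10 Ly6Chi libraries. Eosinophil markers reached 19721 in Ly6Clo but were at 0 in the library of mouse 13 and, for the granule gene Epx, in all 20 libraries. Neutrophil markers summed to between 9998 and 132079 in Ly6Clo against 3045 to 6851 in Ly6Chi, led by Retnlg, while Ly6g itself had a mean of 37.5 in Ly6Clo. In the Ly6Chi libraries, granulocyte progenitor markers (Elane, Prtn3, Mpo, Ctsg) were higher instead, for 4 of 4 genes. These differences moved with the subset. Erythroid markers, whose sums were 270 to 15999 in Ly6Chi and 212 to 76444 in Ly6Clo, overlapped between the subsets. The part of all these markers in the values of the integrin chains was not tested.

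**Figure D1:**
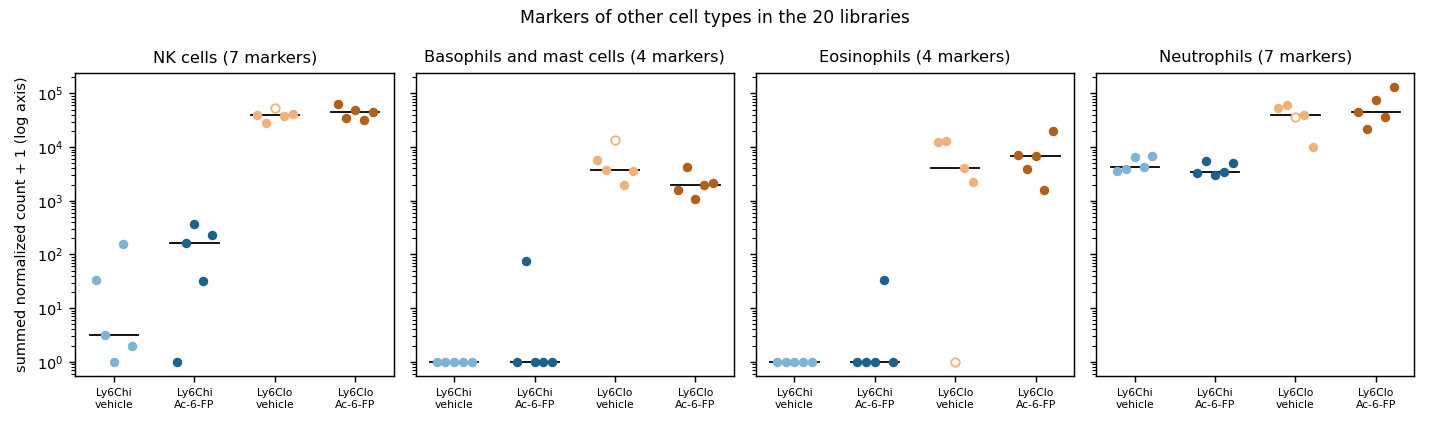
Summed normalized counts + 1 (log axis) of marker genes of NK cells, basophils and mast cells, eosinophils and neutrophils in each library, by group (points, 1 library each; lines, medians; open circle, the Ly6Clo vehicle library of mouse 13). NK cell markers lay between 28248 and 63288 in all Ly6Clo libraries and did not exceed 365 in any Ly6Chi library.

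Promoter sequences from RefSeq (GRCm38.p6; 250 bases before to 50 after the start site) were at hand for 6 of the 10 chains, Itgam, Itga2, Itga4, Itgav, Itgb1 and Itgb7, and were searched on both strands for GAGGAA (other strand TTCCTC), a core recognised by the myeloid factor PU.1, for TGTGGT, a RUNX core, and for GGGCGG, a GC box. Not in that set were Itgal, Itga6, Itgae and Itgb2. GAGGAA was found in 4 of the 6, against 28.3% of 32851 promoters, TGTGGT in 1 (16.8% of all) and GGGCGG in 5 (35.7%). Itgam held GAGGAA 3 times, beginning at -84, -15 and +32 from the start site. The 3 promoters that held it within 100 bases before the start site are shown, since they include that of the antigen used to sort the cells. Capitals mark GAGGAA or TTCCTC, and each stretch lies on the + strand and ends at the base before the start.
Itgam, chr7:128062540-128062639: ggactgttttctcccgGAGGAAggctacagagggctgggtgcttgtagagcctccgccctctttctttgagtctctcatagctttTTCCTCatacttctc
Itgav, chr2:83724297-83724396: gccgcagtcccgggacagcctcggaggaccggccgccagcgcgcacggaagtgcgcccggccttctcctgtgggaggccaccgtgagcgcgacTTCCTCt
Itgb1, chr8:128685554-128685653: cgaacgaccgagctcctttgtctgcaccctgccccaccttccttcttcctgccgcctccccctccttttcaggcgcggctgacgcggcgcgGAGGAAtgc
A match describes these letters and is not evidence of binding. The 3 genes differed in their levels as described next.

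To compare levels between chains, normalized counts were divided by the length of the merged exons of each gene in the GENCODE annotation, in kb, although reads had been counted on constitutive regions only. On this scale Itgb2 stood far above all other chains, with 4522 ± 868 per kb (SD, n = 10) in Ly6Chi and 10369 ± 4335 in Ly6Clo libraries. In Ly6Chi it was followed by Itgb7 (553 ± 247), Itgam (334 ± 137), Itgal (166 ± 72.5) and Itgb1 (142 ± 72.1), of which Itgal and Itgb1 lay within each other's SD. In Ly6Clo the same 4 chains lay between 391 (Itgb1) and 521 (Itgal) per kb, with SDs of 196 to 356, so that their order was not resolved. Itga4 reached 25.1 ± 20.2 in Ly6Chi and 46.5 ± 44.2 in Ly6Clo. The means of Itgav, Itga6, Itga2 and Itgae stayed at or under 12.0 per kb in both subsets. The plot of the 20 libraries shows that the low chains were often at 0 in single libraries and well above 0 in others of the same group.

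**Figure D2:**
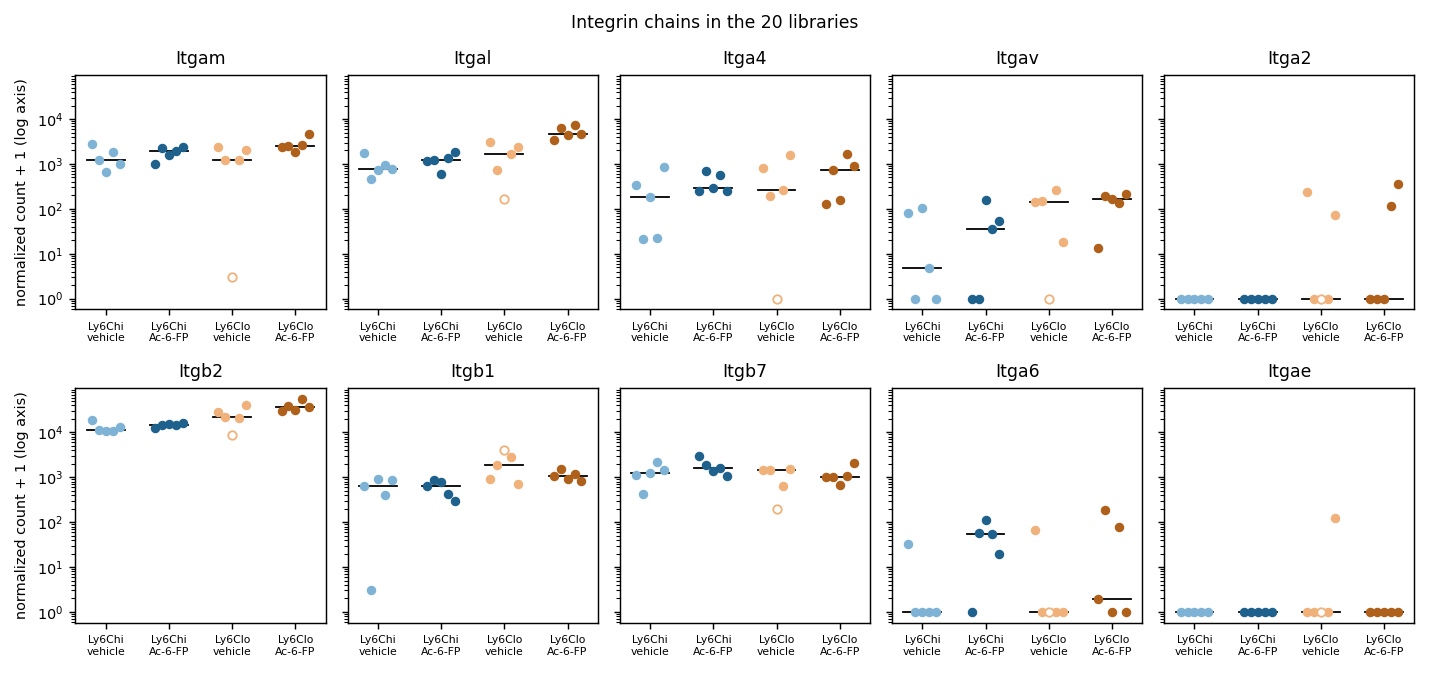
Normalized counts + 1 (log axis) of the 10 integrin chains in each library, by subset and treatment (points, 1 library each; lines, medians; open circle, the Ly6Clo vehicle library of mouse 13). Itgb2 was the highest chain in all groups, Itga2 and Itgae were at 0 in all Ly6Chi libraries, and the open circle lies apart for Itgam at a normalized count of 2.09.

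The first question was how the chains differ between both MoMac subsets of the same liver. Differences are Ly6Chi minus Ly6Clo of log2(normalized count + 1) within each of 10 mice, tested with limma and adjusted over all 17248 genes. Between the subsets, 593 genes (3.44%) were higher in Ly6Clo and 303 (1.76%) higher in Ly6Chi. Of the 10 chains 1, Itgb2, was higher in Ly6Clo and 0 were higher in Ly6Chi, and 5 had an unadjusted p under 0.05, against 16.7% of all genes. One of these 5 is Itga2, which passed the filter only through Ly6Clo. The median log2 difference was -0.89 over the 10 chains and -0.03 over all genes. For the chains it was -1.16 with Itga2 and Itgae set against a floor of 3 reads per Ly6Chi library, and -0.69 without both.

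Itgb2 (chr10:77530347-77565708, mm10) encodes CD18, the beta chain shared by the leukocyte pairs LFA-1 and Mac-1. In the Ly6Chi libraries its normalized count was lowest at 10886, with a median of 13717 and a highest value of 19151. In the Ly6Clo libraries the lowest value was 8874 (mouse 13), the median 30781 and the highest 57077. Within mice, Ly6Clo exceeded Ly6Chi in 9 of 10, by a median of 2.19-fold, and without the library of mouse 13 the lowest Ly6Clo value, 20693, was above every Ly6Chi value. The log2 difference was -1.08 ± 0.17 (SE; adjusted p = 0.00191, limma), with p = 0.00391 in a two-sided exact sign-flip permutation test over 10 mice, whose smallest possible p is 0.00195. Without mouse 13 it was -1.23 ± 0.12 (adjusted p = 9.19e-05). In the 5 vehicle mice alone, with mouse 13 among them, the difference was -0.76 ± 0.28 and the call was lost (adjusted p = 0.640, limma), while in the 5 Ac-6-FP mice it was -1.40 ± 0.15 (adjusted p = 0.0161). The genes most like Itgb2 over the 20 libraries, among 7267 genes with a mean of at least 100, were Dusp16 (Spearman's rho = 0.937), Aldh18a1 (0.930) and a gene without a symbol, GSMG0016563 (0.908). These 20 libraries span both subsets, between which Itgb2 differs.

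Itgal (chr7:127296260-127335137) encodes CD11a, the alpha chain of LFA-1, which binds ICAM-1 and is carried by lymphocytes and NK cells as well as by monocytes. Its normalized counts were 459 to 1859 in Ly6Chi (median 1063) and 167 to 7568 in Ly6Clo (median 3256). Ly6Clo was higher in 9 of 10 mice, again with mouse 13 as the exception, where the values were 721 in Ly6Chi and 167 in Ly6Clo. The log2 difference of -1.23 ± 0.40 did not pass the threshold (adjusted p = 0.108, limma; exact sign-flip permutation p = 0.0273). Without mouse 13 it was -1.60 ± 0.24 and passed (adjusted p = 0.00188, limma; exact permutation p = 0.00391, higher in Ly6Clo in 9 of 9 mice).

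Itgam (chr7:128062640-128128162) encodes CD11b, the alpha chain of the complement receptor Mac-1, on which all cells were sorted. It lay between 658 and 2797 (median 1750) in the Ly6Chi libraries. In the Ly6Clo libraries it lay between 1206 and 4759 in all but that of mouse 13, where it was 2.09, equal to 1 read. It was higher in Ly6Clo in 6 of 10 mice. The log2 difference was 0.45 ± 0.72 over 10 mice (adjusted p = 0.762, limma) and -0.36 ± 0.20 without mouse 13 (adjusted p = 0.367), and with all mice it was also under 0 with quantile normalization (-0.11) and with edgeR (-0.00872), so that it has no settled direction. Itgam shares 3450 exon bases with Gm49368 on the same strand, out of 5024 in all, and reads on the shared bases cannot be told apart.

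Ratios within a library do not depend on how libraries were scaled. The ratio of Itgam to Itgb2 normalized counts was lower in Ly6Clo than in Ly6Chi in 10 of 10 mice, with medians of 0.0593 and 0.125. Itgal relative to Itgam was higher in Ly6Clo in 10 of 10 mice, with medians of 1.40 and 0.664, and in the library of mouse 13 it reached 79.9 because Itgam was at 1 read. Relative to Itgb2, Itgal was higher in Ly6Clo in 5 of 5 Ac-6-FP mice, with medians of 0.133 in Ly6Clo and 0.0940 in Ly6Chi, but in 2 of 5 vehicle mice, with medians of 0.0598 and 0.0655. These ratios were chosen after values had been seen and are given without a test.

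**Figure D3:**
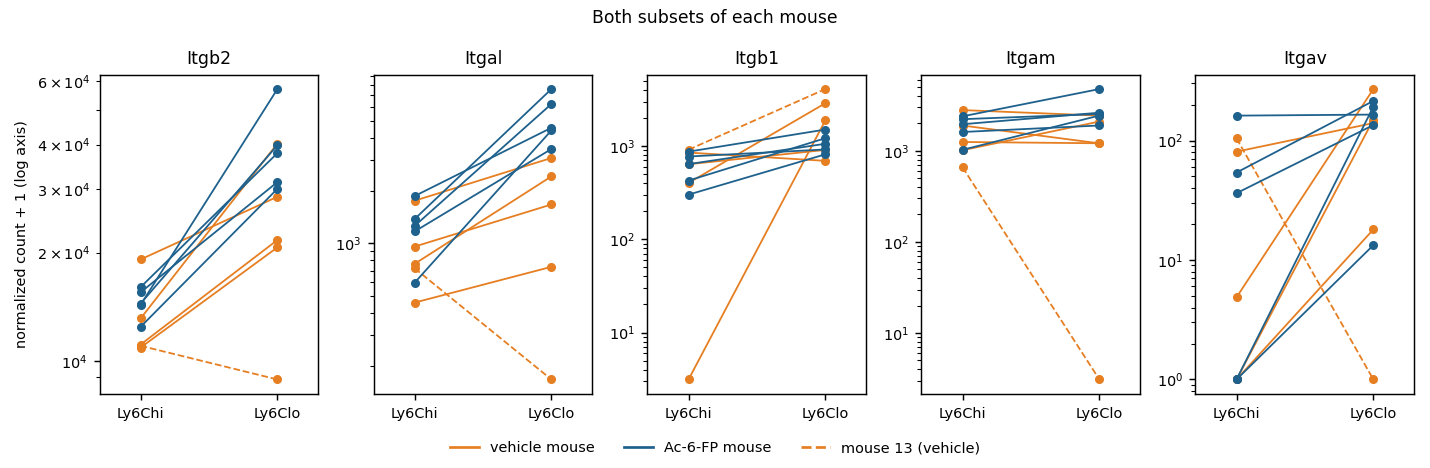
Normalized counts + 1 (log axes, scaled per panel) of Itgb2, Itgal, Itgb1, Itgam and Itgav in the Ly6Chi and Ly6Clo library of each mouse (1 line per mouse, by treatment; dashed, mouse 13). Itgb2, Itgal and Itgav were each higher in Ly6Clo in 9 of 10 mice, mouse 13 being the exception, and so was Itgb1, where the exception was mouse 15.

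Itgb1 (chr8:128685654-128733579) encodes CD29, the beta chain of fibronectin, collagen and laminin receptors and, with Itga4, of VLA-4. It lay between 2.14 and 912 in Ly6Chi (median 638) and between 693 and 4082 in Ly6Clo (median 1135). The value of 2.14 was that of mouse 12, and the next lowest was 300.3. Ly6Clo was higher in 9 of 10 mice, including mouse 13, whose Ly6Clo value was the highest of all. The log2 difference of -1.92 ± 0.76 did not pass the threshold (adjusted p = 0.212, limma; exact sign-flip permutation p = 0.00586). Leaving out mouse 12 gave -1.10 (adjusted p = 0.0947).

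Itgav (chr2:83724397-83806917) encodes the RGD-binding alpha chain linked to activation of TGF-beta. It was at 0 in 4 Ly6Chi libraries and in 1 Ly6Clo library, that of mouse 13, where a value of 0 allows up to 3 reads. The highest values were 160 in Ly6Chi and 269 in Ly6Clo. Ly6Clo was higher in 9 of 10 mice. The log2 difference was -2.65 ± 1.22 (adjusted p = 0.298, limma) with all mice and -3.69 ± 0.90 (adjusted p = 0.0315) without mouse 13. With edgeR on the recovered reads of all mice, the adjusted p was 0.483. An opposite-strand transcript, Gm13684, shares 634 exon bases with Itgav, and the strand setting of the counting is not given in the sources used here.

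Itga2 (chr13:114835824-114932102) encodes CD49b, a collagen receptor chain that is also a surface marker of mouse NK cells and basophils. No read was counted in any Ly6Chi library. In Ly6Clo it was above 0 in 4 of 10 libraries, at 237 and 73.7 in vehicle mice 11 and 15 and at 117 and 350 in Ac-6-FP mice 19 and 20. Against a floor of 3 reads per library, which covers counting error only, the Ly6Clo mean of 77.8 was 29.5-fold higher. No p is given, since Itga2 passed the filter only where it is high. NK cell markers were high in all 10 Ly6Clo libraries, also in the 6 in which Itga2 was at 0. Itgae (chr11:73090574-73147449), the CD103 chain that binds E-cadherin with Itgb7, was above 0 in 1 library, the Ly6Clo vehicle library of mouse 15, at 121.

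Itga4 (chr2:79255425-79333114), the alpha chain of VLA-4 and of the gut-homing pair with Itgb7, ranged from 20.3 to 872 in Ly6Chi (median 268) and from 0 (mouse 13) to 1703 in Ly6Clo (median 496). It was higher in Ly6Clo in 7 of 10 mice. The log2 difference was -0.30 ± 0.89 (adjusted p = 0.882, limma), -1.17 without mouse 13 (adjusted p = 0.211), and slightly above 0 without mouse 12 or mouse 14. Itga4 shares 1124 exon bases with the opposite-strand gene Cerkl, whose median normalized count was 2.62. Itgb7 (chr15:102215996-102231936), the partner of Itga4 and Itgae, ran from 423 to 2929 in Ly6Chi and from 198 to 2110.3 in Ly6Clo. It was higher in Ly6Chi in 6 of 10 mice (log2 difference 0.53 ± 0.39, adjusted p = 0.514, limma). Itga6 (chr2:71786928-71858427), a laminin receptor chain, was above 0 in 5 Ly6Chi and 4 Ly6Clo libraries and reached 112 and 186 (log2 difference 0.69 ± 0.87, adjusted p = 0.692).

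Across the 10 Ly6Clo libraries, levels of Itgal, Itgam and Itgb2 ran in parallel, with Spearman's rho of 0.879 for Itgal with Itgam, 0.806 for Itgal with Itgb2 and 0.770 for Itgam with Itgb2. Without mouse 13 (n = 9) these were 0.833, 0.733 and 0.683, and in the 10 Ly6Chi libraries they were 0.758, 0.588 and 0.709. Itgb1 ran the other way in Ly6Clo, with -0.612 against Itgb2 (-0.467 without mouse 13) and -0.406 against Itgal (-0.183). The chains of a library also share its depth and scaling. Vehicle and Ac-6-FP mice were pooled here, and in Ly6Clo Itgal did not overlap between them. These values are a description. Over the same 10 Ly6Clo libraries the chains also moved with summed markers of other cells, of which 18 lists were compared. The dendritic cell list, whose sum in Ly6Clo was mostly Cd209a (mean 11870), ran against Itgb2 (-0.855), Itgal (-0.782) and Itgam (-0.770) and with Itgb1 (0.733), and without mouse 13 these were -0.833, -0.717, -0.717 and 0.667. Cd209a alone gave the same values, while Itgax, of the same list, ran the other way, with Itgb2 (0.673), Itgal (0.758) and Itgam (0.806). Markers of Ly6Clo cells ran with Itgam (0.952), Itgal (0.903) and Itgb2 (0.745), with 0.667 or more in each case without mouse 13. Their sum was mostly Nr4a1, whose mean was no higher in Ly6Clo (9321) than in Ly6Chi (9880). The endothelial cell list ran with Itgb2 (0.939), but its sum in Ly6Clo was nearly all Pecam1 (mean 1483), which leukocytes also express, and Cdh5, Kdr, Stab2 and Lyve1 each had a mean of at most 21.97. Kupffer cell markers, low as they were, had a rho of 0.924 with Itgal, and B cell markers one of 0.867. NK cell markers had a rho of -0.139 with Itgal and -0.212 with Itgb2, and 0.10 and 0.0167 over 9 libraries, while with Itgb1 it was -0.224 over 10 and -0.60 over 9, and with Itga4 -0.515 and -0.35. The T cell list ran against Itgb1 (-0.770, and -0.70 without mouse 13), although its sum was nearly all Lck (mean 2251 in Ly6Clo), which NK cells express as well. The part of other cells in the levels of the chains was not tested.

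The other genes of the pathway were taken from 3 lists. Of 17 further integrin chains, 15 had a row of their own and 7 passed the filter, and 1, Itgax, was called. Itgax encodes CD11c, another partner of Itgb2 and a marker of dendritic cells, and it was used to exclude cells. It was at 0 in all 10 Ly6Chi libraries but above 0 in 9 of 10 Ly6Clo libraries, where the highest value was 3302 (mean 1640 ± 992, SD, n = 10). This mean is 622-fold above the floor of 3 reads, which covers counting error only. Since Itgax passed the filter on low values only through the Ly6Clo libraries, in which it is high, its call is no evidence beyond these values and no p is given. Summed dendritic cell markers, of which Itgax is 1 of 6, lay between 7704 and 19383 in Ly6Clo and did not exceed 535 in Ly6Chi. Among the other 5, Cd209a had a mean of 11870 in Ly6Clo and 188 in Ly6Chi.

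Of 31 integrin ligands, 18 were tested, of which 1 was higher in Ly6Chi and 2 were higher in Ly6Clo. Fn1, the matrix ligand of Itga4 and Itgav pairs, had a mean of 8298 ± 2630 in Ly6Chi and 2888 ± 2337 in Ly6Clo (log2 difference 1.98 ± 0.39, adjusted p = 0.00963, limma). Spp1, which encodes osteopontin, had a lower log2 level in Ly6Chi (-2.27 ± 0.44, adjusted p = 0.00742), with medians of 840.0 and 6064. One Ly6Chi library, that of mouse 15, reached 37469, the highest Spp1 value of all. Thy1, a lymphocyte surface protein bound by Itgam with Itgb2 and by Itgav with its partners, had means of 3.02 in Ly6Chi and 141 in Ly6Clo. It too passed the filter only through Ly6Clo libraries, so that its call is given without a p.

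Of 44 genes for integrin activation and adaptors, 39 were tested, and 2 were higher in Ly6Chi and 4 in Ly6Clo. Higher in Ly6Clo were Cd9 and Cd81, tetraspanins that associate with integrins, with log2 differences of -3.99 ± 0.15 (adjusted p = 1.23e-08, limma) and -3.37 ± 0.25 (adjusted p = 3.83e-06). Mean normalized counts of Cd9 were 1144 ± 369 in Ly6Chi and 17462 ± 2604 in Ly6Clo, and no Ly6Clo library lay under 13703. Skap1, a T cell and NK cell adaptor that acts on LFA-1, was at 0 in 8 Ly6Chi libraries and had a mean of 540.4 in Ly6Clo (-7.45 ± 0.99, adjusted p = 0.000474). Rap1a, the small GTPase of inside-out activation, was higher in Ly6Clo (-0.99 ± 0.24, adjusted p = 0.0330). In the opposite direction went Lims1 (PINCH), a partner of the integrin-linked kinase (0.64 ± 0.14, adjusted p = 0.0144), and Cib1, which binds integrin tails (0.61 ± 0.15, adjusted p = 0.0363). With 1 mouse left out in turn, Rap1a kept its call in 6 of 10 fits and Cib1 in 3 of 10. In the vehicle mice alone, only Cd9 of these 10 called list genes passed (adjusted p = 0.0149). Talin 1 and kindlin-3 (Tln1 and Fermt3), which open the integrin headpiece from inside the cell, did not pass (-0.12 ± 0.45 and 0.84 ± 0.63, adjusted p = 0.913 and 0.528), and were named after their values had been seen. The medians of the 3 lists were -0.41, -0.62 and -0.07, beside -0.03 for all genes.

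**Figure D4:**
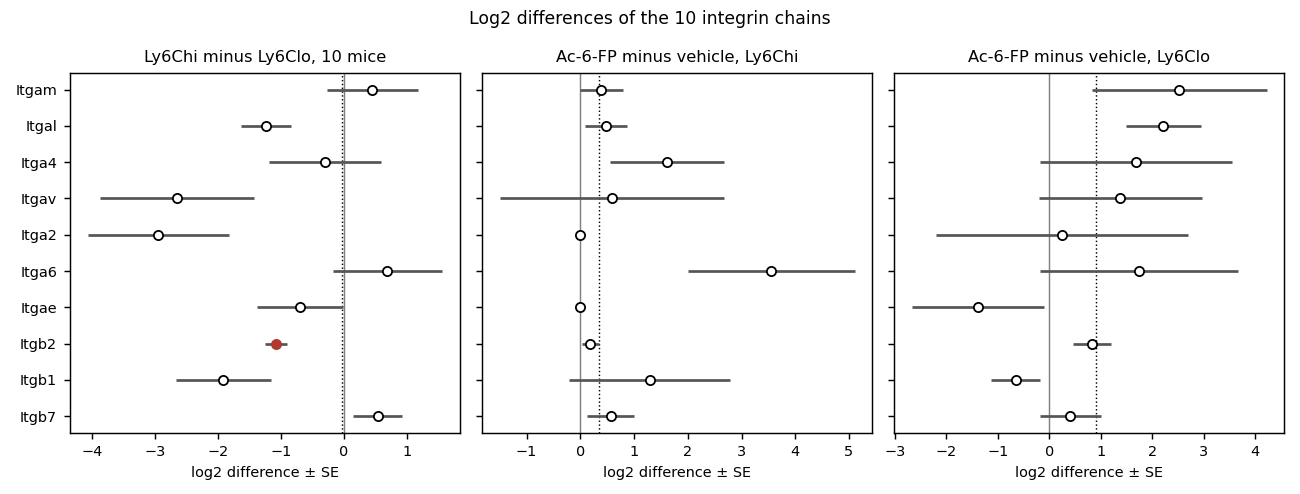
Log2 differences ± SE (limma) of the 10 integrin chains between subsets within mouse (left) and between Ac-6-FP and vehicle in Ly6Chi (middle) and Ly6Clo (right); filled point, adjusted p under 0.05; dotted line, median of all genes tested. Itgb2 is the only filled point, at -1.08 between subsets. In the right panel Itgam, Itgal, Itga4, Itga6 and Itgav lie above the median of 0.91 and the other chains below it. That median was 0.35 without the library of mouse 13.

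The second question was whether Ac-6-FP changed the chains within each subset, 5 against 5 mice. In Ly6Chi, 13 of 17248 genes passed (0.0754%), and 0 of the 10 chains did, with 1 at an unadjusted p under 0.05, against 8.73% of all genes. That chain was Itga6. In vehicle mice it was at 0 in 4 libraries and at 31.0 in mouse 11, and in Ac-6-FP mice it was 0, 56.5, 112, 54.1 and 18.6. The groups overlapped, and the log2 difference was 3.55 ± 1.55 (adjusted p = 0.566, limma; exact permutation p = 0.0873, where the smallest possible p is 0.00794). Itgb2 was 19151, 11099, 11013, 10886 and 13118 in vehicle mice and 12432, 14435, 15514, 14316 and 16033 in Ac-6-FP mice, a log2 difference of 0.19 ± 0.16 (adjusted p = 0.687). For Itgam the difference was 0.39 ± 0.40, for Itgal 0.48 ± 0.39 and for Itgb7 0.56 ± 0.44, all within overlapping groups, beside a median of 0.35 over all genes. With genes above 0 as a covariate the direction turned for Itgam (-0.079), Itgal (-0.30) and Itgb2 (-0.081), while Itgb7 gave 0.52. Itga4 and Itgb1 differed by 1.61 ± 1.06 and 1.29 ± 1.499, the latter through the value of 2.14 in vehicle mouse 12. Non-overlapping groups occurred for 1.35% of all genes and for 0 of the chains.

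In Ly6Clo, 9 of 17248 genes passed (0.0522%) and again 0 of the 10 chains, with 2 at an unadjusted p under 0.05, Itgal and Itgb2, against 9.31% of all genes. Itgal was 3065, 735, 167, 1665 and 2407 in vehicle mice 11 to 15 and 3447, 6222, 4399, 7568 and 4554 in Ac-6-FP mice 16 to 20. Every Ac-6-FP value was above every vehicle value, which was so for 1.29% of all genes, and for 1.47% without the library of mouse 13. Mean levels were 1608 ± 1184 and 5238 ± 1641 (SD, n = 5), a ratio of 3.26, and the ratio was 2.66 without that library. The log2 difference was 2.21 ± 0.73 and did not pass over all genes (adjusted p = 0.528, limma), while the exact permutation test over 10 mice gave its smallest possible p of 0.00794. With the number of genes above 0 as a covariate, the log2 difference was 1.18 ± 0.48 (adjusted p = 0.949). Without the library of mouse 13 the difference was 1.54 (exact permutation p = 0.00794, n = 9). Summed NK cell markers overlapped between treatments in Ly6Clo, 28248 to 53906 in vehicle and 32134 to 63288 in Ac-6-FP mice. The T cell list was 796 to 3209 in vehicle (median 1144) and 1947 to 4336 with Ac-6-FP (median 3081), mostly Lck, while Cd3d, Cd3e, Cd3g and Cd5 each had a mean of at most 86.8 in either treatment. Markers of Ly6Clo cells summed to between 1821 and 15971 in vehicle (median 3100) and to between 11791 and 31926 in Ac-6-FP mice (median 25229). Most of this sum was Nr4a1, with means of 3499 and 15144. B cell markers summed to at most 778 in vehicle (median 594) and to 766 to 1131 with Ac-6-FP (median 842). Pecam1 averaged 836 and 2129, and Kupffer cell markers had medians of 16.0 and 356. The dendritic cell list had medians of 17330 and 11389, but only Cd209a (means 14605 and 9135) and Flt3 (192 and 140) were lower with Ac-6-FP, while Itgax (1155 and 2125), Xcr1 (54.0 and 108), Clec9a (16.0 and 37.2) and Zbtb46 (0 and 40.6) had higher means. Csf1r, the receptor on which macrophages depend, averaged 5257 in vehicle and 14585 with Ac-6-FP (adjusted p = 0.528, limma), and 3384 and 8307 in Ly6Chi. Of the other macrophage markers in Ly6Clo, Adgre1 averaged 2108 and 4100, Cd14 10008 and 12519 and Lyz2 41477 and 42981. Cd68 went the other way, at 14549 and 13431. The part of all these markers in the Itgal values was not tested.

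Itgb2 was 28621, 21696, 8874, 20693 and 40255 in Ly6Clo of vehicle mice and 30118, 39837, 31444, 57077 and 37855 of Ac-6-FP mice. The highest vehicle value, in mouse 15, lay above 4 of the 5 Ac-6-FP values. The difference was 0.83 ± 0.37 (adjusted p = 0.534, limma; exact permutation p = 0.0556), and 0.51 without the library of mouse 13 (exact permutation p = 0.119) and 0.30 with genes above 0 as a covariate. Itgam averaged 1388 ± 945 in vehicle and 2849 ± 1104 in Ac-6-FP mice, 2.05-fold higher (log2 difference 2.53 ± 1.70, adjusted p = 0.598, limma; exact permutation p = 0.0476). Without the library of mouse 13 it was 1.64-fold higher, a log2 difference of 0.71 (exact permutation p = 0.0794), and with genes above 0 as a covariate the difference was 0.20 ± 1.22. Itgb1 went the other way, at 908, 1886, 4082, 2879 and 693 in vehicle and 1057, 1502, 918, 1213 and 814 in Ac-6-FP mice. The groups overlapped, with a log2 difference of -0.65 ± 0.48 (adjusted p = 0.613), which the same covariate brought to -0.025.

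For the remaining chains the Ly6Clo differences depended on single libraries. Itga4 differed by 1.68 ± 1.87 with and by -0.12 without the library of mouse 13, Itgav by 1.38 ± 1.59 and 0.05, and Itgb7 by 0.40 ± 0.59 and -0.11. The median difference of the 10 chains was 1.10 and that of all genes 0.91 with this library, against -0.03 and 0.35 without it. The shift over all genes thus moved with 1 vehicle library. None of the genes on the lists of further chains, ligands and adaptors passed in either subset.

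The change with Ac-6-FP was also compared between the subsets, by the difference of the within-mouse differences. Here 0 of 17248 genes (0%) passed with limma, 840 (4.87%) had an unadjusted p under 0.05, and edgeR also called 0, with 313 genes at an unadjusted p under 0.05. Among the chains 1, Itgal, had an unadjusted p under 0.05, with -1.73 ± 0.65 (adjusted p = 0.830, limma; exact permutation p = 0.0238). Its within-mouse difference was -0.37 ± 0.58 in vehicle and -2.10 ± 0.26 in Ac-6-FP mice. The vehicle value rests on mouse 13, at 2.10, as the other 4 vehicle mice averaged -0.98 ± 0.45 (SD, n = 4). Without mouse 13 the difference between subsets in the change with Ac-6-FP was -1.12 ± 0.37 (adjusted p = 0.820, limma). After correction over all genes, no chain was shown to respond differently in both subsets.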

How the data were processed

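The authors aligned 75-base reads with STAR 2.4.0 to mm10, counted them on constitutive regions of FAST DB genes and normalized the counts with DESeq2. The deposited values are signal values: gene counts divided by 1 size factor per library, linear, with 2 decimals and not divided by length. Dividing by the step of each library gave whole reads for 99.97% of values above 0, within 0.006. In the Ly6Chi library of mouse 15 the step was 0.989, so close to 1 that whole reads are less certain there, and edgeR was also run without this mouse. A value of 0 allows up to 3 reads, and this covers counting error only.

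The chains, lists and tests were chosen with earlier results of these data known. Values were analysed as log2(normalized count + 1) with limma 3.58.1 in R 4.3.3, with a variance trend over the mean level, Benjamini-Hochberg adjustment over 17248 genes and a threshold of 0.05. The fits were tested on simulated data. Libraries were paired by mouse number, since both subsets came from the same liver. The residual correlation within mouse was 0.00334 to 0.250, with a median of 0.0338. Between different mice the median was -0.00319, so that the pairing rests on the mouse numbers rather than on these values. Permutation tests were exact and two-sided. The text names the 10 chains, list genes past the threshold (at most 8 per list) and the 3 genes most like each chain called between subsets; other genes named are markers, genes overlapping a chain, and Tln1 and Fermt3, chosen after their values were seen. Alternatives were other pseudocounts (0.1 and 10), a filter at a group mean of 100 or none, quantile normalization, array weights, genes detected as covariate, no pairing, each mouse left out, each treatment alone, and edgeR 4.0.16 on the recovered reads. Each library came from 1 mouse, and gene positions are those of the table.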

Additional observations from a re-analysis of the deposited data

Results flagged for a closer look

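In 35 of the 40 combinations of chain and group, values varied. In 7 of these the highest or lowest of the 5 libraries stood apart from the others on the log2 scale by Dixon's criterion. For continuous values chance meets it in about 1 of 20 groups. That rate does not hold for the flagged groups of Itga6 and Itgae. There, 4 of 5 libraries were at 0, and any value above 0 stands apart. Of the 7 flags, 2 were in the Ly6Clo vehicle library of mouse 13: Itgam at 2.09 normalized counts and Itga4 at 0. Itga6 stood apart in both libraries of vehicle mouse 11, at 31.0 in Ly6Chi and 67.1 in Ly6Clo, where the other vehicle libraries were at 0. Itgae was at 121 in the Ly6Clo vehicle library of mouse 15 and at 0 in all other libraries. Itgav was low, at 12.3, in the Ly6Clo Ac-6-FP library of mouse 16, and Itgb1 was low, at 2.14, in the Ly6Chi vehicle library of mouse 12.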

How the results depend on the processing

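Leaving out each mouse in turn, Itgb2 kept its call between subsets in 10 of 10 fits, with log2 differences from -1.23 to -0.98, and it passed under all other settings but the vehicle mice alone. The number of chains called between subsets was 1 to 3 with 1 mouse left out (3 without mouse 13), 2 with quantile normalization, 3 with array weights, 2 with genes detected as covariate, 2 in the Ac-6-FP mice and 0 in the vehicle mice alone. Called genes numbered 896 with all mice, 1512 with array weights, 1702 with the covariate, 584 with edgeR (TMM), 467 with edgeR without mouse 15, an alternative chosen after seeing the data, 79 in the vehicle mice and 545 in the Ac-6-FP mice. Without the replicate block by mouse 952 genes and the same 1 chain were called.

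The Itgam difference between subsets was -0.11 with quantile normalization, -0.26 with array weights, -0.00872 and -0.032 with edgeR (TMM and the authors' size factors) and -0.62 in the Ac-6-FP mice, and -0.36 to 0.64 with 1 mouse left out. Itga4 gave 0.017 with a pseudocount of 0.1, 0.24 with the covariate and -1.17 to 0.059 with 1 mouse left out, and Itga6 -0.22 in the vehicle mice.

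For Ac-6-FP in Ly6Chi no chain was called under any setting run, and the 13 called genes became 5 without a filter, 4 at a group mean of 100, 0 with quantile normalization, the covariate, each edgeR fit or 1 fit of 20 libraries with the replicate block, and 0 to 133 with 1 mouse left out (133 without mouse 11). With the covariate, Itgam gave -0.079, Itgal -0.30, Itgav -0.33 and Itgb2 -0.081. Itgav gave -0.65 with quantile normalization and -0.33 to 1.502 with 1 mouse left out, and Itgb1 -0.25 (without mouse 12) to 1.79.

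In Ly6Clo no chain was called either. The 9 called genes became 2 with a pseudocount of 10, no filter, a group mean of 100, the covariate or without the library of mouse 13, 3 in 1 fit with the replicate block, 0 with quantile normalization and each edgeR fit, and 0 to 103 with 1 mouse left out (103 without mouse 11). Itga2 gave -0.26 with quantile normalization, -0.16 with array weights, -2.94 with the covariate and -1.10 to 1.51 with 1 mouse left out. Itga4 gave -1.07 with the covariate and -0.12 to 2.55 with 1 mouse left out, Itgb7 -0.012 with array weights, -0.44 with the covariate and -0.11 to 0.62, and without the library of mouse 13 Itga2 gave -0.46. Itgav gave -0.045 with edgeR without mouse 15.

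Compared between subsets, the change with Ac-6-FP gave 2 genes at a group mean of 100, 1 with quantile normalization, 3 without the replicate block and 0 to 4 with 1 mouse left out, and no chain under any setting run. Where a value moved, the cause was not tested. Low chains rest on few reads, and a value of 0 allows up to 3.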
